A study of Arabidopsis thaliana with 15 samples.

Results

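Between 24 h and 48 h of continuous light the germinated Arabidopsis seed becomes a seedling, and this step was measured with 6 of the 15 MethylC-seq libraries of a germination time course, chosen by their time labels: 3 of 48 h SL and 3 of 24 h SL. CHH methylation fell over the step while CG and CHG levels over the genome did not separate the groups. MethylC-seq reads genomic DNA after bisulfite treatment, in which unmethylated cytosines are read as thymine. All groups were wild-type Col-0 seeds that had been dried for 14 days in darkness (0 h), stratified for 48 h at 4 °C in the dark (48 h S) and moved to continuous light (SL) at 22 °C, for 6 h (6 h SL, 3 libraries), 24 h or 48 h. The label of the tissue is germinating seed at 24 h SL and seedling at 48 h SL, so time and tissue cannot be told apart, and calls on DNA offer no marker expression with which to check the label. Each library is a pool of whole seeds or seedlings, in which a change within cells and a change in the mix of cell types cannot be told apart. Whether the loss of this second step continued at the places and rates of the first step in light, from 6 h SL to 24 h SL, is the question followed here.

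Plants methylate cytosines in the contexts CG, CHG and CHH, where H is A, C or T. CG methylation is copied at replication by the maintenance methyltransferase MET1, CHG methylation is kept by CMT3, and CHH methylation has to be set anew in each cell cycle. CHH sites are methylated by CMT2, which acts mainly in long heterochromatic transposable elements and prefers CAA and CTA, and by DRM2, which small RNAs guide to short elements and element edges in RNA-directed DNA methylation (RdDM) with little preference among CHH trinucleotides.

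The 5 windows below are those with the largest called CHH fall on each chromosome at 48 h SL against 24 h SL. They are printed as examples of DNA with a large called fall. They are the plus strand of TAIR10, read from TAIR10.1, whose nuclear bases match the cytosines of the files. Capitals mark CHH cytosines, written C where the cytosine is on the printed strand and G where it is on the other strand.
Window on chromosome 1: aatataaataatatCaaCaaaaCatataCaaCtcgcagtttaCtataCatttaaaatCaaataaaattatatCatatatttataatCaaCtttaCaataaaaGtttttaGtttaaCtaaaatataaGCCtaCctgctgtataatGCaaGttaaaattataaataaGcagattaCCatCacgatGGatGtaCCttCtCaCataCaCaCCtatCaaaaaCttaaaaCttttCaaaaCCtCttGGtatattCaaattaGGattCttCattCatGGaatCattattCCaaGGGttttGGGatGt
Window on chromosome 2: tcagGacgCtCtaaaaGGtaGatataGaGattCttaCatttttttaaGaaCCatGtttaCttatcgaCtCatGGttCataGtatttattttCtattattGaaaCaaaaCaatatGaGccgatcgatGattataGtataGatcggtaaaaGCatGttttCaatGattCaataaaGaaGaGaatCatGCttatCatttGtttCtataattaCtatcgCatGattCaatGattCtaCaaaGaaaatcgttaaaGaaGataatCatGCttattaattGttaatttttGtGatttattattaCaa
Window on chromosome 3: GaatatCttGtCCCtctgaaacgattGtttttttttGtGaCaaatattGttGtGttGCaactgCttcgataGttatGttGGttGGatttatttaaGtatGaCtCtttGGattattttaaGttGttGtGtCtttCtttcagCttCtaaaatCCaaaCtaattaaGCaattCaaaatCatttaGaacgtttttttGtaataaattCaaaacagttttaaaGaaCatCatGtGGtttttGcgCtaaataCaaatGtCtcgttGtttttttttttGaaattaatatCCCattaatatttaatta
Window on chromosome 4: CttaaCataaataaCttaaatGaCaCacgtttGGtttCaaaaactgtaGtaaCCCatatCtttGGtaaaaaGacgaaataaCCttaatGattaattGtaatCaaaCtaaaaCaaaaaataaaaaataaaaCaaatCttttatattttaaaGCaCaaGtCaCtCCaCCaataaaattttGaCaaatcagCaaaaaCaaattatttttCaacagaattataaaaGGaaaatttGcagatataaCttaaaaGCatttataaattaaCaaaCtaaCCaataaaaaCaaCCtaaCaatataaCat
Window on chromosome 5: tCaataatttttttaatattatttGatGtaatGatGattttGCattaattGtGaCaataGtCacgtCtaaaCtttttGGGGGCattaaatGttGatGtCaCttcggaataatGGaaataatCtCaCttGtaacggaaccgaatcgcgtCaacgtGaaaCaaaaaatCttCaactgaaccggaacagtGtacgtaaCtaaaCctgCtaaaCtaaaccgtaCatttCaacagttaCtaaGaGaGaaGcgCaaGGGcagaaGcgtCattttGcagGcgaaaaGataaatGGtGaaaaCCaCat

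The window on chromosome 1 (chr1:23174401-23174700) had its midpoint within NOGC1 (AT1G62580), outside the annotated exons of the gene. On chromosome 2 (chr2:909901-910200) the window lay outside annotated genes, and the nearest annotated start of a protein-coding gene, 4537 bp away, was that of MED8, which encodes a subunit of the Mediator complex of transcription. The window on chromosome 3 (chr3:19134001-19134300) had its midpoint at -715 bp from the start of AT3G51580, on the upstream side. On chromosome 4 (chr4:10537201-10537500) the midpoint was 671 bp from the start of AT4G19270 on its downstream side, outside annotated genes. The window on chromosome 5 (chr5:13283701-13284000) lay in a gene-poor bin, 28004 bp from the nearest such start, AT5G35050. G and C made up 22.7% to 35.7% of their bases, and they held 56 to 65 CHH cytosines each. No library read all of these, with at most 32, 49, 49, 53 and 28 read in the windows of chromosomes 1 to 5. The least deeply read of the 6 libraries held 29, 88, 30, 71 and 41 CHH calls in them.

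In the window on chromosome 3 the CHH level, that is the methylated calls as a percentage of the calls on CHH cytosines, was 22.3%, 24.0% and 20.3% in the 48 h SL libraries, against 76.7%, 56.5% and 75.0% in the 24 h SL libraries. The difference of the summed levels was -47.63 percentage points (adjusted p = 1.18e-08), the largest called fall in the genome. The 3 libraries of 6 h SL had 66.4%, 55.4% and 65.7%, which overlapped those of 24 h SL. At CAA and CTA sites of this window the level was 31.9% ± 3.84 at 48 h SL, against 79.5% ± 7.48 at 24 h SL, and at its other CHH sites 15.4% ± 0.528 at 48 h SL, against 59.9% ± 11.1 at 24 h SL (SD, n = 3 each). The window on chromosome 5 had 25.5%, 9.09% and 37.9% at 48 h SL, against 53.5%, 75.6% and 75.6% at 24 h SL, with a difference of -42.00 points. On chromosome 4 the levels were 37.7%, 32.6% and 35.9% at 48 h SL, against 63.4%, 75.8% and 79.4% at 24 h SL, with a difference of -39.75 points. On chromosome 1 they were 32.4%, 23.8% and 39.7% at 48 h SL, against 72.4%, 63.5% and 74.8% at 24 h SL, and on chromosome 2 they were 33.4%, 30.7% and 19.3% at 48 h SL, against 55.7%, 79.5% and 67.2% at 24 h SL. In none of the 5 windows did a 48 h SL library reach a 24 h SL library, a condition of their choice. In all of them CHH methylation remained at 48 h SL. Over the first step the summed levels changed by 10.08, 8.82 and 2.89 points in the windows of chromosomes 1, 3 and 5. In those of chromosomes 2 and 4 they changed by -8.51 and -5.82. How far high 24 h SL values add to these falls was not tested. The 5 next largest falls were of the same size, from -40.38 to -38.16 points, and they lay outside annotated genes.

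The libraries differed in depth and background before any comparison was made. On chromosomes 1 to 5 the 48 h SL libraries held 221011626 to 339251465 calls and the 24 h SL libraries 97238997 to 167742219. Least deeply read was replicate 1 of 24 h SL, with 2.27 calls for each cytosine. In 121022 windows of 300 bp with under 1% CG and CHG methylation in the 0 h and 48 h S libraries, the apparent CHH level was 0.594%, 0.751% and 0.340% in the 48 h SL libraries, against 0.414%, 0.285% and 0.270% in the 24 h SL libraries. These backgrounds overlapped between the groups (exact permutation p = 0.2), with replicates 1 and 2 of 48 h SL above every 24 h SL library. Their part in the small positive differences at nearly unmethylated DNA was not tested, and the main levels of every context are also given with this CHH background subtracted.

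Averaged over windows of 300 bp with equal weight, the CHH level was 4.34%, 4.12% and 3.69% in the 48 h SL libraries, against 5.38%, 5.01% and 5.22% in the 24 h SL libraries. No library of 48 h SL reached any of 24 h SL. The difference of the means was -1.16 ± 0.22 points (SE), which removed 22.2% of the level at 24 h SL (exact 2-sided permutation test, p = 0.1, the smallest that 3 against 3 allow, and 0.3 adjusted over 3 contexts). With the background subtracted the difference was -1.39 points, or 28.4% of the level at 24 h SL. Over all calls summed without regard to windows, however, the CHH libraries overlapped (difference -0.92 points, exact permutation p = 0.3).

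CG methylation, the most abundant, was 24.5%, 24.0% and 23.8% at 48 h SL, against 24.4%, 24.0% and 24.1% at 24 h SL, a difference of -0.10 points that was smaller than the spread between replicates. CHG methylation was 9.27%, 8.82% and 8.60% at 48 h SL, against 9.16%, 8.87% and 9.02% at 24 h SL, and its libraries overlapped as well. When replicate 3 of 48 h SL was left out, both of these differences turned positive, with 0.046 points for CG and 0.029 for CHG, and when replicate 1 of 24 h SL was left out CG stood at 0.00302. Over all calls summed they were 1.299 points for CG and 0.85 for CHG.

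**Figure D1:**
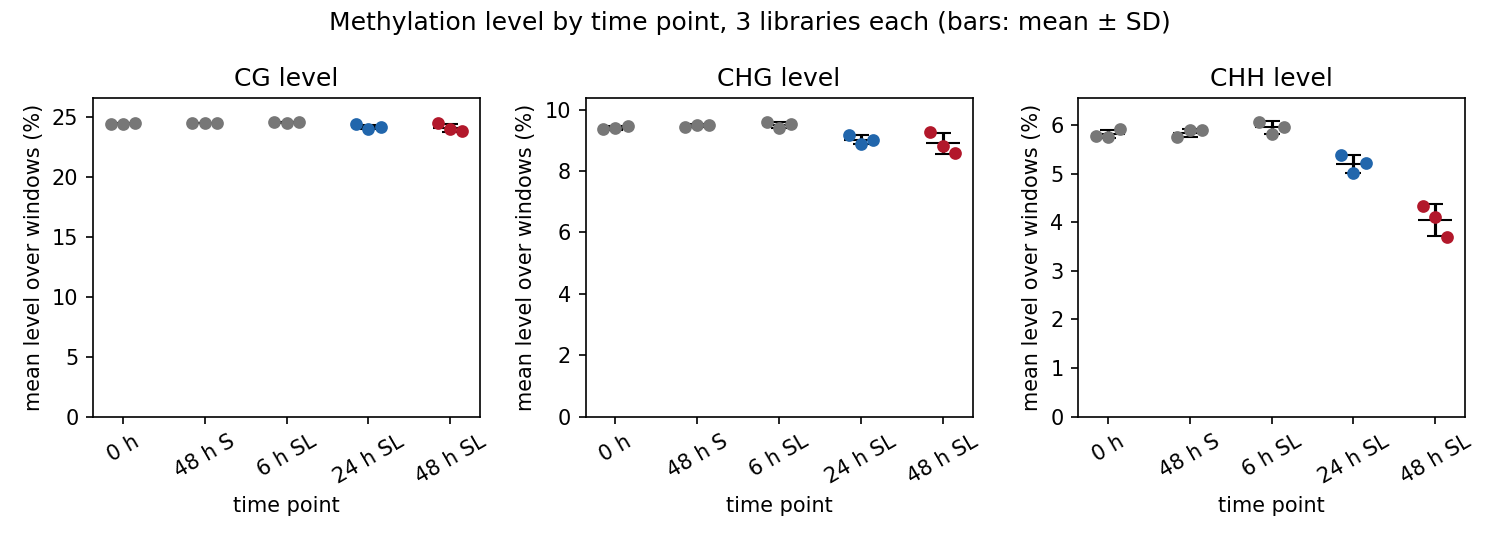
Mean methylation level over 300-bp windows (y axis, percent) at each time point (x axis) in the CG, CHG and CHH contexts, with 1 point per library and bars for the mean and SD of 3 libraries. The 3 CHH points of 48 h SL, from 3.69% to 4.34%, lie below the 3 of 24 h SL, from 5.01% to 5.38%, while CG and CHG points overlap.

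The first step in light had the same sign in every context. CHH fell to 5.20% ± 0.186 at 24 h SL, against 5.95% ± 0.125 at 6 h SL (SD, n = 3 each), a loss of 12.6% in 18 h. Per hour, CHH changed by -0.0481 ± 0.0091 points over the second step and -0.0415 ± 0.0072 over the first (SE), and the difference of these rates, -0.0066 ± 0.0137, was smaller than its error. CHG changed by -0.0050 ± 0.0090 points per hour over the second step and by -0.0275 ± 0.0057 over the first, a difference of 0.0225 ± 0.0121. In CG these rates were -0.0040 ± 0.0097 and -0.0208 ± 0.0059, a difference of 0.0168 ± 0.0133. With the CHH background of each library subtracted, the second step changed CHG by -0.34 points, against -0.12 as measured, and CG by -0.28 points, against -0.10. In the background windows the mean CHG and CG levels rose less over this step, by 0.133 and 0.111 points, against 0.239 in CHH. The subtraction thus makes the CHG and CG falls larger than a background of their own context would. With it the differences of rates were -0.0138 ± 0.0102 in CHH, 0.0158 ± 0.0099 in CHG and 0.0112 ± 0.0109 in CG. Both steps share the 24 h SL libraries, so a low or high value there moves their rates apart, and with 3 libraries a group none of these differences of rates was tested by permutation.

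Among the 9 CHH trinucleotides every one was lower in all 48 h SL libraries than in all 24 h SL libraries (exact permutation p = 0.1 and adjusted p = 0.178 over 16 trinucleotides for each). CAA, a preferred site of CMT2, had 6.91%, 6.80% and 6.10% at 48 h SL, against 8.24%, 7.72% and 7.97% at 24 h SL, and lost 17.2%. CTA, the other preferred site, lost 20.1%. CCC, the least methylated but one, had 2.18%, 1.89% and 1.81% at 48 h SL, against 3.07%, 2.87% and 3.04% at 24 h SL, and lost 34.5%. CCT lost 30.5% and CCA 29.0%. In points the order was another, since CTA changed by -1.61 and CCC by -1.03.

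Set against the whole CHH level of the same windows and library, the trinucleotides moved apart. The ratio for CAA was 1.63, 1.69 and 1.69 at 48 h SL, against 1.56, 1.58 and 1.56 at 24 h SL, and that for CCC was 0.497, 0.460 and 0.488 at 48 h SL, against 0.568, 0.568 and 0.576 at 24 h SL. CCA, CCT and CTC ratios were also lower in all 48 h SL libraries (exact permutation p = 0.1 and adjusted p = 0.16 for each). CTA, CAC, CAT and CTT ratios overlapped between the groups. Over the first step the CAA ratio changed by 0.03 and the CCC ratio by -0.02, against 0.10 and -0.09 over the second. With the background subtracted CCC lost 47.5%, CCT 45.9% and CAA 20.9% over the second step, and over the first CCT lost 18.2% and CAA 11.5%. The same CHH background of a library was subtracted from every trinucleotide, and none was measured for each trinucleotide. The shares of the least methylated ones, CCT and CCC, therefore rest most on it.

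**Figure D2:**
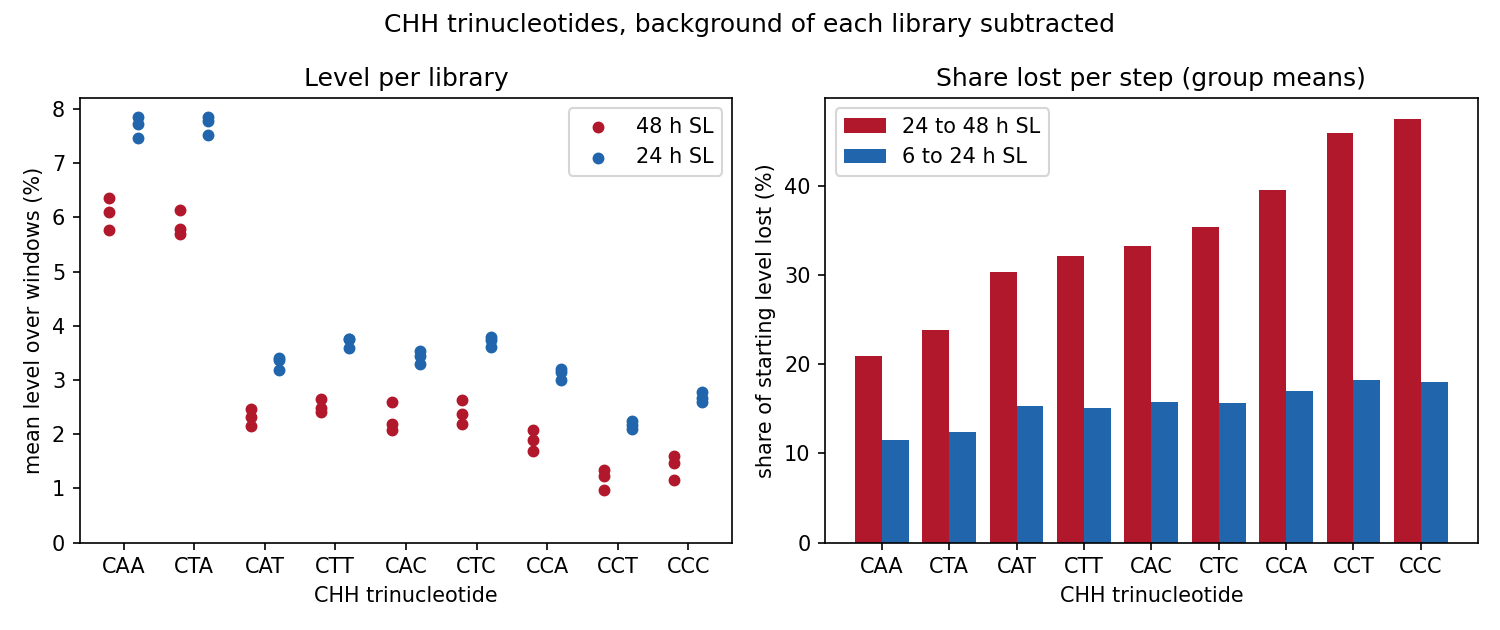
Left, mean CHH level over windows (percent, background subtracted) for each trinucleotide in the 3 libraries of 48 h SL and of 24 h SL. The same CHH background of a library was subtracted from every trinucleotide. Right, the share of the starting level that each trinucleotide lost over the second and the first step, from group means, with CCT at 45.9% and 18.2% and CAA at 20.9% and 11.5%.

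In CHG the levels of the 3 trinucleotides overlapped. With the CHH background subtracted, and not one of CHG itself, CTG alone was lower in all 48 h SL libraries, by -0.46 points (exact permutation p = 0.1 and adjusted p = 0.16). The ratios of the 3 trinucleotides to the whole CHG level did separate. CTG stood at 1.04, 1.05 and 1.05 times the CHG level at 48 h SL, against 1.06, 1.07 and 1.06 times at 24 h SL, while CAG and CCG ratios were higher in all 48 h SL libraries. In CG the CGC ratio was lower and the CGT ratio higher in all 48 h SL libraries, by -0.0074 and 0.0040, and the others overlapped.

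Windows were next grouped by their CHH level in the summed 0 h and 48 h S libraries, which enter neither step. In the 10931 windows with 40% or more, the level was 31.6%, 29.3% and 29.3% at 48 h SL, against 46.0%, 44.3% and 46.5% at 24 h SL, a change of -15.54 points or 34.1% of the level. In the 39731 windows with 20 to 40% it was 19.1%, 17.3% and 16.7% at 48 h SL, against 24.4%, 23.0% and 24.1% at 24 h SL, a loss of 25.7%. In the 27984 windows with 10 to 20% the loss was 21.7%, and in the 4847 windows with 5 to 10% it was 23.1%. All 4 strata had separated libraries (exact permutation p = 0.1 each). In the 296769 windows with under 2% the level was 0.593%, 0.729% and 0.353% at 48 h SL, against 0.424%, 0.296% and 0.279% at 24 h SL, close to the background given above. With it subtracted the change was -0.01 points. The background was itself taken from nearly unmethylated windows, so a value near 0 is no test of its part here.

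The hourly change grew with the starting level in both steps. In windows of 40% or more it was -0.647 ± 0.0424 points per hour over the second step and -0.475 ± 0.0440 over the first, and the difference, -0.172 ± 0.0755, exceeded its error. In windows of 20 to 40% the rates were -0.255 ± 0.0348 and -0.202 ± 0.0309, and in windows of 5 to 10% they were -0.0644 ± 0.0146 and -0.0629 ± 0.0146. At a single rate in points, 42.9% of the change from 6 h to 48 h SL would have been done by 24 h SL. The share done was 35.5% in the highest stratum, with 32.0% to 40.8% over the 24 h SL libraries, and 42.3% in windows of 5 to 10%, with 30.9% to 55.6%.

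Windows with at least 5% CHH in the 0 h and 48 h S libraries were also split by the preference of CMT2, namely by the ratio of the CAA and CTA level to that of the other CHH sites in those same libraries. At 20 to 40% in the 0 h and 48 h S libraries, the 6039 windows in which CAA and CTA stood at most 25% above the other sites had 18.04%, 17.0% and 16.3% at 48 h SL, against 26.05%, 24.9% and 26.3% at 24 h SL, a loss of 33.6%. The 25457 windows of that level with a ratio of at least 2 had 19.6%, 17.5% and 16.8% at 48 h SL, against 23.4%, 22.0% and 23.0% at 24 h SL, a loss of 21.2%. Over the first step these classes lost 16.8% and 11.5%. The log2 ratio of the level in windows without bias to that in biased windows, at 5% or more, was 0.33, 0.40 and 0.43 at 48 h SL, against 0.63, 0.66 and 0.68 at 24 h SL (difference -0.26 ± 0.03 SE, exact permutation p = 0.1 and adjusted p = 0.175 over 7 comparisons). The first step moved this ratio by -0.09 ± 0.01. The classes were not matched for starting level. Median levels in the 0 h and 48 h S libraries were 33.2% without bias and 20.4% with it at 5% or more. At 20 to 40% they were 29.9% and 24.3%. At 10 to 20% they were 14.9% and 16.9%, and there the losses over the second step were 30.3% and 19.4%. Evenly methylated windows, the pattern known of RdDM, thus lost a larger share than CAA- and CTA-biased ones over both steps, and the classes do not show which enzyme acted.

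**Figure D3:**
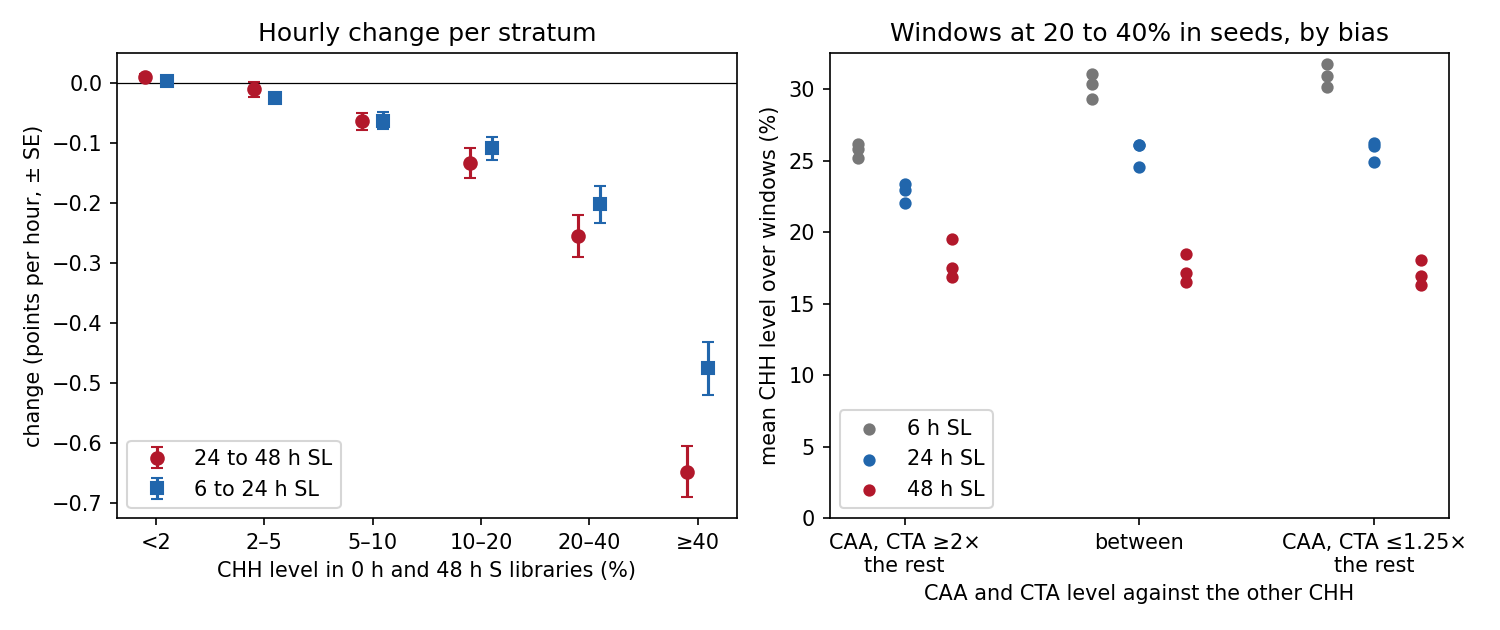
Left, change of the CHH level in points per hour (mean ± SE from the spread of 3 libraries a group) for the second and the first step, by the CHH level in the 0 h and 48 h S libraries, at -0.647 and -0.475 in windows of 40% or more. Right, CHH level of each library of 6, 24 and 48 h SL in windows of 20 to 40%, by the ratio of the CAA and CTA level to that of other CHH sites.

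By chromosome, the CHH loss ranged from 21.2% on chromosome 1 to 23.3% on chromosome 2, and the libraries were separated on all 5 (exact permutation p = 0.1 each). Along the chromosomes it followed the gene-poor centres. In the fifth of 500-kb bins with the least protein-coding sequence, 48 bins in all, the level was 13.4%, 12.2% and 11.7% at 48 h SL, against 17.0%, 15.98% and 16.7% at 24 h SL, a change of -4.11 points. In the other bins it was 2.25%, 2.25% and 1.85% at 48 h SL, against 2.71%, 2.49% and 2.59% at 24 h SL, a change of -0.48 points. Of 240 bins, 220 had a lower mean at 48 h SL, 151 had all libraries lower and 0 had all libraries higher. The log2 ratio of gene-rich to gene-poor bins overlapped between the time points as measured (difference 0.12 ± 0.06, exact permutation p = 0.2), and with the background subtracted the direction turned, with lower ratios in all 48 h SL libraries (difference -0.09 ± 0.02, exact permutation p = 0.1). Per hour and as measured, gene-poor bins changed by -0.171 ± 0.0250 points over the second step and -0.128 ± 0.0212 over the first (SE). The difference of these rates was -0.0433 ± 0.0388. Gene-rich bins changed by -0.0199 ± 0.0061 and -0.0217 ± 0.0041, and the difference, 0.0018 ± 0.0085, was smaller than its error. The background was not subtracted from these rates. It averaged 0.561% at 48 h SL, against 0.323% at 24 h SL and 0.277% at 6 h SL.

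CG methylation also separated the groups in the gene-poor bins. It was 69.3%, 67.9% and 67.7% at 48 h SL, against 70.0%, 69.6% and 69.8% at 24 h SL, a change of -1.50 points (exact permutation p = 0.1), and the first step there changed it by the same -1.50 points. In gene-rich bins the CG libraries overlapped.

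**Figure D4:**
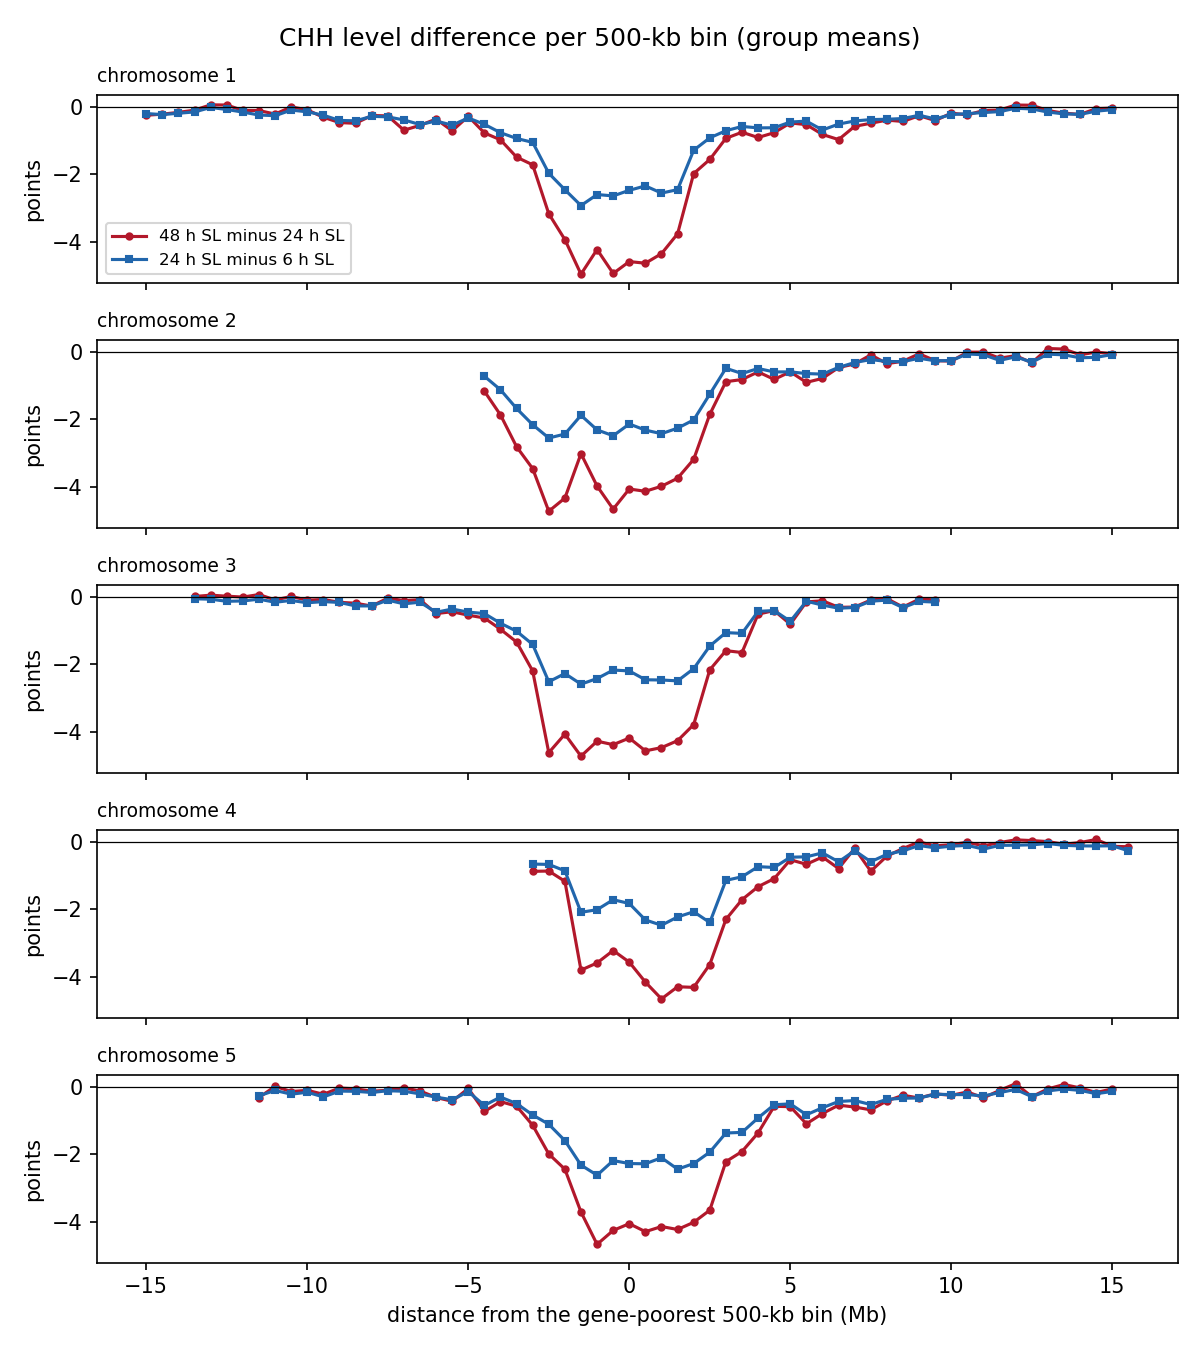
Difference of the mean CHH level (points, y axis) in 500-kb bins of the 5 chromosomes for 48 h SL minus 24 h SL and for 24 h SL minus 6 h SL, against the distance of each bin from the gene-poorest bin of its chromosome (Mb, x axis). The second step ranges from -4.96 to 0.10 points and is deepest near the gene-poorest bins.

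Annotated features also differed in their CHH loss. Windows in annotated pseudogenes, which RefSeq annotates apart from protein-coding genes, had a CHH level of 15.4%, 13.6% and 13.1% at 48 h SL, against 18.2%, 17.0% and 17.6% at 24 h SL, a loss of 20.3%. Windows outside genes and promoters lost 27.1% and promoter windows 24.5%, and libraries of both classes were separated (exact permutation p = 0.1 each). Within protein-coding gene bodies the level was 1.00%, 1.01% and 0.722% at 48 h SL, against 0.992%, 0.856% and 0.870% at 24 h SL, and overlapped, while with the background subtracted it averaged 0.353% at 48 h SL, against 0.585% at 24 h SL without overlap. The log2 ratio of windows outside genes to pseudogenes was lower in all 48 h SL libraries than in all 24 h SL libraries, by -0.13 ± 0.03, and lower at 24 h SL than at 6 h SL by -0.05 ± 0.01 (exact permutation p = 0.1 each, adjusted p = 0.175 for the second step). The log2 ratio of protein-coding gene bodies to pseudogenes was higher in all 48 h SL libraries as measured (difference 0.33 ± 0.13) and lower in all of them with the background subtracted (difference -0.39 ± 0.17, exact permutation p = 0.1 each), so its direction rests on the subtraction. In pseudogenes CG methylation was 77.3%, 75.8% and 75.6% at 48 h SL, against 78.8%, 78.2% and 78.4% at 24 h SL, also without overlap.

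Around the starts of protein-coding genes, from 2000 bp upstream to 2000 bp downstream in bins of 100 bp, 28 of 40 bins had all 48 h SL libraries below all 24 h SL libraries. The other 12 ran from 200 bp upstream to 1000 bp downstream. From 600 to 500 bp upstream the level averaged 3.31% at 48 h SL, against 4.35% at 24 h SL. In the first 100 bp of genes it averaged 1.23% at 48 h SL, against 1.247% at 24 h SL. The background was not subtracted here, and it averaged 0.561% at 48 h SL, against 0.323% at 24 h SL. The overlap near gene starts therefore does not show that methylation was kept there. All 40 bins around the starts of pseudogenes were lower in all 48 h SL libraries.

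**Figure D5:**
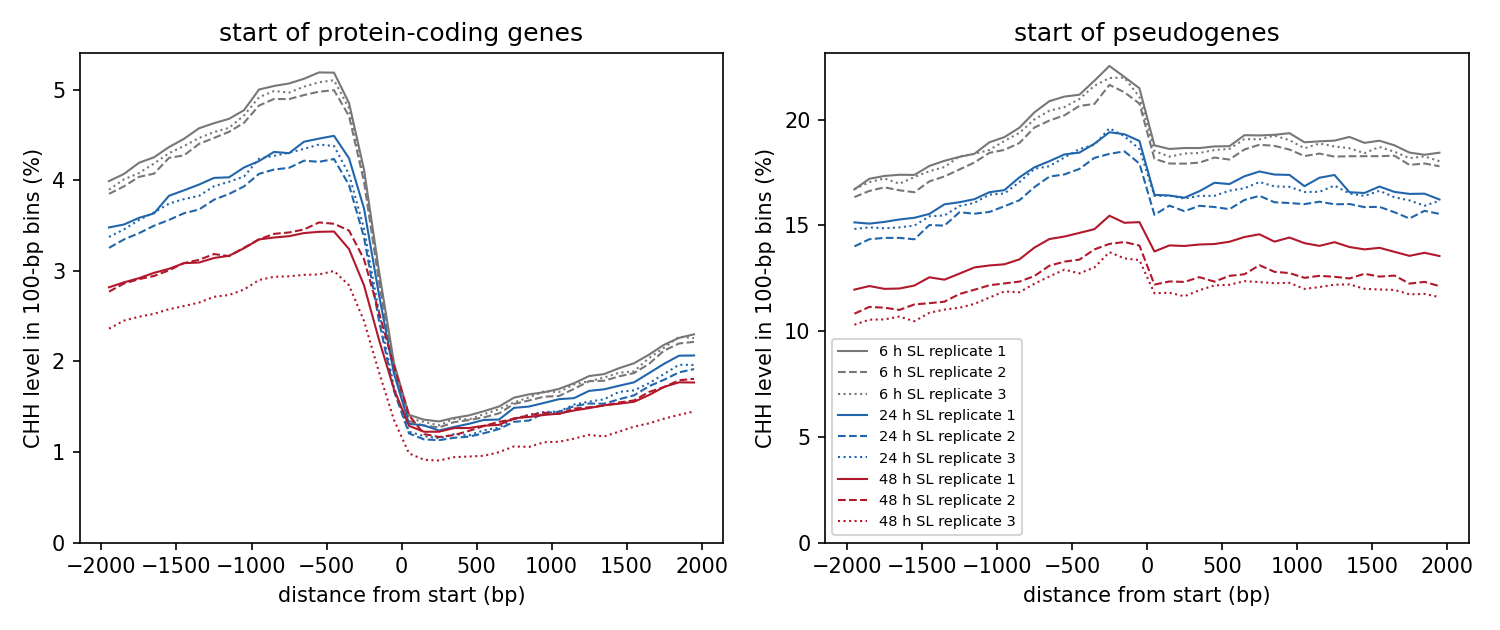
CHH level (percent, background not subtracted) in 100-bp bins around the starts of protein-coding genes and of pseudogenes. Bins run from 2000 bp upstream to 2000 bp downstream, with 1 line per library of 6, 24 and 48 h SL. The 48 h SL lines lie below the 24 h SL lines in 28 of 40 bins at genes and in 40 of 40 at pseudogenes.

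Single windows were tested with a quasi-binomial model on methylated and unmethylated counts, with Benjamini-Hochberg adjustment over all tested windows of a context, and a window was called at an adjusted p below 0.05 and a difference of at least 20 points. In CHH, 2301 of 384799 windows fell at 48 h SL against 24 h SL, which is 0.598% of those tested, and 0 rose. The 0 covers the minimum difference only, since without it 22898 windows fell and 1526 rose, and at an unadjusted p under 0.05 the counts were 42119 and 24806. limma called 1973 falls and 0 rises and edgeR 88 falls and 0 rises. Of the 2301 windows, 2198 had no overlap of libraries, a pattern that 9.08% of all tested windows showed in this direction and 9.96% in the other. In the first step, 253 CHH windows fell (0.0657%) and 2 rose (0.00052%).

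The called windows lost part of their methylation. Their median level was 31.9% at 48 h SL, against 56.0% at 24 h SL, the median difference was -22.95 points, and the lowest mean level at 48 h SL was 2.098%. They formed 2030 runs of adjacent windows, 1800 of which held 1 window, and the longest run spanned 1800 bp. The minimum sets their number, as 604 windows past the test fell by 19 to 20 points and 454 by 20 to 21.

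By their level in the 0 h and 48 h S libraries, 2171 of the 2301 called windows were in the stratum of 40% or more, where 19.9% of tested windows were called, and 0 were under 10%. At 40% or more, 25.5% of windows without CAA and CTA bias were called and 0.733% of the biased ones. Their median differences were -16.08 and -8.99 points, beside a median of 0.12 points over all tested windows. Few biased windows reached this stratum. Of 48488 biased windows at 5% or more, 1420 lay at 5 to 10%, 21202 at 10 to 20% and 25457 at 20 to 40%. The classes were not matched for starting level within the stratum, and a call needs a fall of 20 points. In the same stratum 22.2% of windows in gene-rich bins were called and 15.8% in gene-poor bins, with medians of -15.08 and -14.61 points. By feature it was 23.3% in promoters, 19.7% outside genes and promoters, 17.3% in protein-coding gene bodies and 11.6% in pseudogenes.

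The loci of the 2 steps were compared through libraries outside the contrast that chose the windows, although all 15 libraries entered the fit and its dispersion. In the 253 windows called lower at 24 h SL than at 6 h SL, the CHH level at 48 h SL was 34.4%, 30.7% and 31.1%, against 57.6% ± 0.814 at 0 h and 56.9% ± 0.372 at 48 h S (SD, n = 3 each). All 48 h SL libraries were below all 0 h and 48 h S libraries in 88.1% of them, against 12.6% of all tested windows and 71.4% of windows with at least 20% in the 0 h and 48 h S libraries. The last set stood lower at 0 h, at 32.6%, so these shares are not matched for starting level. The median differences of the 253 windows were -8.003 points over the second step and -22.01 over the first, and the first step is the one that chose them. In the 2301 windows of the second step, 6 h SL stood at 61.9% ± 0.705, against 60.8% ± 0.430 at 0 h and 60.5% ± 0.379 at 48 h S, and in 0.826% of them all 6 h SL libraries lay below all 0 h and 48 h S libraries, against 1.32% of all tested windows and 1.02% of those with at least 20% in the 0 h and 48 h S libraries. Those windows had medians of -22.95 points over the second step, which chose them, and -6.32 over the first. Called in both steps were 10 windows, and since both steps use the 24 h SL libraries this count is no measure of likeness.

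Window by window the hourly rates were tested in the same model. In CHH 58 windows lost faster per hour over the second step (0.0151%) and 52 slower (0.0135%). In CHG these counts were 2 (0.00067%) and 46 (0.0154%), and in CG 46 (0.0175%) and 85 (0.0323%). All 6 counts were 0 when the floor of 1 on the dispersion was applied after moderation and not before it, so they rest on that choice. Leaving out any 1 of the 9 libraries of 6, 24 and 48 h SL gave 81 to 442 faster CHH windows and 63 to 249 slower ones. Faster windows were most numerous without 48 h SL replicate 1, and slower ones without 24 h SL replicate 1. Each of these fits gave more of both than the fit of all 15 libraries. Each also gave the spread of the single window less weight in the moderation.

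In CHG, 64 windows fell (0.0214%) and 3 rose (0.001%) at 48 h SL, against 27 falls (0.00904%) and 0 rises (0%) over the first step. The 0 covers the minimum difference and the quasi-binomial model only. These calls ended with the floor applied after moderation, when 0 windows were called in CHG and 0 in CG, and edgeR called 1 CHG fall. The largest CHG fall (chr1:20815501-20815800) had 51.2%, 53.7% and 45.2% at 48 h SL, against 83.9%, 97.4% and 92.9% at 24 h SL, with 31 to 86 calls a library. Its CG level averaged 84.7% at 48 h SL, against 87.1% at 24 h SL. The 4 next largest CHG falls lay between -31.51 and -29.89 points. The largest CHG rise (chr2:3838201-3838500) had 58.3%, 54.4% and 69.0% at 48 h SL, against 31.8%, 25.0% and 38.5% at 24 h SL. At 6 h SL it had 45.3%, 53.8% and 40.7%.

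In CG, 4 windows fell (0.00152%) and 12 rose (0.00457%), against 15 falls (0.00571%) and 5 rises (0.0019%) over the first step. limma called 0 falls and 2 rises and edgeR 0 of each. The largest CG rise (chr4:6367801-6368100, in the pseudogene AT4G10201) had 69.4%, 39.5% and 35.7% at 48 h SL, against 27.3%, 14.3% and 13.0% at 24 h SL. At 6 h SL it had 37.9%, 51.0% and 50%. In all 5 named CG rises the mean at 24 h SL was below those at both 6 h SL and 48 h SL. The largest CG fall (chr1:17518801-17519100, in AT1G47640) had 50%, 30.4% and 51.7% at 48 h SL, against 92.0%, 75.8% and 61.7% at 24 h SL. At 6 h SL it had 48.9%, 53.9% and 44.9%. Both kinds of call rested on single libraries. CG falls numbered 13 or 7 when replicate 1 or 2 of 48 h SL was left out, and 1 or 7 when replicate 2 or 3 of 24 h SL was. CG rises numbered 20 or 22 when replicate 2 or 3 of 48 h SL was left out, and 22 when replicate 3 of 24 h SL was. CHG falls numbered 42 when replicate 2 of 48 h SL was left out and 31 when replicate 3 of 24 h SL was, and CHG rises 7 when replicate 3 of 48 h SL was left out and 8 or 6 when replicate 1 or 2 of 24 h SL was.

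Promoters, taken from 1000 bp upstream to 200 bp downstream of the annotated start, were called at a difference of at least 10 points. In CHH 464 of 27240 promoters fell (1.7%) and 0 rose (0%), and without the minimum 2131 fell (7.82%) and 657 rose (2.41%). Without 48 h SL replicate 1 the count of falls was 739. The median over all promoters was 0.21 points. Most promoters carry little CHH methylation, and 4840 had at least 5% at 24 h SL. The promoter of IBR1 (AT4G05530), an enzyme that turns indole-3-butyric acid into auxin, fell most among genes with a symbol. It had 27.2%, 21.4% and 21.6% at 48 h SL, against 35.9%, 48.0% and 54.7% at 24 h SL, a difference of -23.47 points (adjusted p = 2.89e-05). KELP (AT4G10920), a transcriptional coactivator, had 38.7%, 37.3% and 30.2% at 48 h SL, against 58.5%, 61.1% and 59.1% at 24 h SL. PKp3 (AT1G32440), a plastid pyruvate kinase, had 31.6%, 25.9% and 22.9% at 48 h SL, against 42.6%, 52.0% and 52.1% at 24 h SL.

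Other promoters of the 12 with the largest falls belong to genes of varied function. MED8 had 31.5%, 25.6% and 25.7% at 48 h SL, against 48.3%, 48.0% and 45.9% at 24 h SL. UGP2, which makes UDP-glucose, had 31.6%, 20.1% and 25.8% at 48 h SL, against 44.1%, 42.5% and 44.5% at 24 h SL. For ICS2, an isochorismate synthase, the values were 30.2%, 26.1% and 24.4% at 48 h SL, against 46.2%, 39.8% and 47.4% at 24 h SL. GPRI1 (AT2G20570), a transcription factor of chloroplast development, had 27.6%, 28.3% and 34.0% at 48 h SL, against 35.1%, 42.4% and 52.7% at 24 h SL. The remaining 5 were ABCI9, ADC1, which starts polyamine synthesis from arginine, EMB2761, RFC2, a subunit of the clamp loader of replication, and RPS18C, a protein of the small ribosomal subunit, with differences from -18.43 to -16.20 points. In all 12 the 24 h SL mean was below the 6 h SL mean, with first-step differences from -11.03 to -2.00 points.

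In CHG 16 promoters fell (0.0589%) and 3 rose (0.011%), and in CG 3 fell (0.011%) and 42 rose (0.155%). With the floor applied after moderation these counts were 8 and 0 in CHG and 0 and 0 in CG, and single libraries moved them. The CG rises numbered 11, 113 or 128 when replicate 1, 2 or 3 of 48 h SL was left out, and 68 or 19 when replicate 1 or 2 of 24 h SL was. The CG falls numbered 25 and the CHG falls 87 when replicate 1 of 48 h SL was left out. CPSRP54, a subunit of the chloroplast signal recognition particle, had 22.4%, 21.5% and 17.6% CHG at 48 h SL, against 36.6%, 35.1% and 31.4% at 24 h SL, with an adjusted p of 0.0119 that was 0.0568 with the other floor order. PyrD, an enzyme of riboflavin synthesis, had 59.1%, 55.8% and 54.5% CG at 48 h SL, against 50.5%, 42.5% and 36.7% at 24 h SL. At 6 h SL it had 56.2%, 52.4% and 49.7%, and its call ended with the other floor order.

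Pseudogenes were tested over their bodies with the same minimum of 10 points. In CHH 172 of 4686 fell (3.67%) and 0 rose (0%), and 2025 fell and 22 rose without the minimum. In CG 4 fell (0.0904%) and 8 rose (0.181%), and without the minimum 570 fell and 27 rose. In CHG 0 fell and 0 rose (0% each), with 186 and 111 past an unadjusted p of 0.05. The largest CHH fall was in AT2G21905, annotated as a pseudogene of an ECA1 gametogenesis related family, with 27.6%, 21.7% and 30.2% at 48 h SL, against 51.7%, 46.1% and 63.0% at 24 h SL.

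Promoters of 93 genes in 7 lists were read from the same fit, beside 7.82% of all tested promoters lower past the test in CHH, 2.41% higher past it and 1.7% called lower. With 4 to 19 genes a list, counts of 1 to 4 were read as values of single genes and not as a property of a list. The 16 tested genes of RdDM had 4 with lower CHH past the test and 0 called at 10 points, with a median of 0.06 points. HEN1, which methylates small RNAs, had 13.5%, 12.2% and 11.3% at 48 h SL, against 17.1%, 19.1% and 19.3% at 24 h SL (adjusted p = 0.0406, and 0.0512 with the other floor order). Of 10 genes of methylation maintenance 3 were lower past the test and 0 called, and VIM3, a partner of MET1, had 13.3%, 14.5% and 8.92% at 48 h SL, against 18.2%, 19.3% and 16.6% at 24 h SL. Of 4 DNA demethylases 1, DML3, was higher past the test, at 1.62%, 2.46% and 0.892% at 48 h SL, against 0.636%, 0.377% and 0.234% at 24 h SL, levels near the background. In the list of seed maturation and storage 1 of 19 was lower, LEC2, a master regulator of embryo development, with 8.31%, 8.002% and 6.12% at 48 h SL, against 16.9%, 9.70% and 12.5% at 24 h SL.

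Of 16 genes of abscisic acid and gibberellin 0 passed the test in CHH in either direction, and 0 had 5% CHH at 24 h SL. The largest difference in that list was that of GA20OX3, a gibberellin biosynthesis gene, at 1.03 points. Among 15 genes of light and photosynthesis 2 were lower past the test, near the share over all promoters, and 0 called, and RBCS1B, a small subunit of Rubisco, had 9.70%, 8.87% and 8.11% at 48 h SL, against 11.2%, 13.7% and 17.0% at 24 h SL. Of 13 genes known as demethylated or silenced around the endosperm 2 were lower past the test and 1 was called. That was AGL36, an imprinted gene of a MADS-box regulator, with 21.2%, 20.7% and 18.7% at 48 h SL, against 34.0%, 33.1% and 33.1% at 24 h SL, a difference of -12.77 points (adjusted p = 1.21e-05). The median of this list was -2.12 points, beside 0.21 over all promoters. These medians are not matched for starting level. Of the 13 promoters 9 had over 5% CHH at 24 h SL, against 4840 of 27240 promoters with at least 5%. In CG and CHG no list had a promoter past the test in this fit.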

How the data were processed

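Wild-type Col-0 seeds and seedlings were profiled by MethylC-seq, 3 libraries at each of 5 time points. The deposited tables give, per cytosine, methylated and unmethylated counts, which the authors made with Trim Galore 0.4.2 and Bismark 0.16.3 on TAIR10. The labels do not say that libraries are separate seed batches, so p-values measure no spread beyond that between libraries. In the CG and CHG fits the moderation gave all windows, all promoters or all pseudogenes of a context 1 common dispersion. Their p-values therefore do not hold the spread between libraries of the single window, promoter or pseudogene. Lists of differentially methylated regions were not used.

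Counts were summed in 300-bp windows with at least 20 calls in every library and 3 cytosines. Levels are means over windows of equal weight (Python 3.11.15, numpy 2.4.6, pandas 2.3.3, scipy 1.17.1), tested by exact 2-sided permutation. Single windows, promoters and pseudogenes were fitted across all 15 libraries by a quasi-binomial model with a dispersion floor of 1 and limma 3.58.1 moderation (R 4.3.3), checked on simulated data, with edgeR 4.0.16 as an alternative. The floor stands before moderation, an order chosen after the calls of both orders had been seen. Background subtraction used the CHH level of nearly unmethylated windows in every context. Named windows were the largest called CHH fall per chromosome, the next 5, and up to 5 CHG and CG changes per direction. Named promoters were the largest called changes of genes with a symbol whose libraries did not overlap. Gene lists cover DNA methylation, demethylation, seed storage, hormones, light and endosperm genes. Members and lists were chosen with earlier results of these data known.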

Additional observations from a re-analysis of the deposited data

Results flagged for a closer look

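The hourly change of the second step, 48 h SL against 24 h SL, was set against that of the first, 24 h SL against 6 h SL, by a test of the difference itself in each window. In CHH 58 windows lost faster in the second step and 52 slower. In CHG the counts were 2 faster and 46 slower. In CG they were 46 faster and 85 slower. All 6 counts were 0 with the dispersion floor applied after moderation, and the 24 h SL libraries enter both steps.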

How the results depend on the processing

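Called windows are given as falls and rises at 48 h SL against 24 h SL. A minimum difference of 10 points gave 14287 and 7 in CHH, 106 and 11 in CHG, and 48 and 56 in CG, and no minimum gave 22898 and 1526, 107 and 25, and 83 and 85. Windows of 100 bp gave 11378 and 3 in CHH, 8 CHG rises and 23 CG rises. Windows of 1000 bp gave 115 CHH falls, 4 falls and 0 rises in CHG and 0 of each in CG. A minimum of 10 calls gave 2 CHH rises, 6 CHG rises and 7 CG falls, and one of 40 calls 22 CHG falls and 1 fall and 6 rises in CG. The 6 libraries alone gave 1 CHG rise and 1 CG fall. limma gave 15 CHG falls and 0 falls and 2 rises in CG. edgeR gave 88 CHH falls, 1 fall and 0 rises in CHG and 0 of each in CG.

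The floor applied after moderation, chosen after seeing the data, gave 2235 CHH falls, all among the 2301, and 0 of each in CHG and CG. It gave 0 windows with different rates in any context, 8 CHG falls and 0 CHG rises in promoters, 0 of each in CG there, and 2 CG rises in pseudogenes. With the 9 libraries in light alone, 455 CHH windows lost faster and 423 slower. In that fit, and in those of the 6 libraries alone and of 100-bp windows, all CHH windows also had 1 common dispersion. Their p-values do not hold the spread between libraries of the single window.

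In promoters a minimum of 20 points gave 8 CHH falls, 0 falls and 0 rises in CHG, and 1 fall and 0 rises in CG. No minimum gave 2131 falls and 657 rises in CHH, 15 CHG rises, and 11 falls and 79 rises in CG. Without 1 replicate at a time, windows numbered 2214 to 3304 falls and 0 to 3 rises in CHH, 31 to 79 and 3 to 8 in CHG, and 1 to 13 and 8 to 22 in CG. Faster CHH windows numbered 81 to 442 and slower ones 63 to 249. Promoters numbered 373 to 739 falls in CHH, 12 to 87 falls and 0 to 12 rises in CHG, and 1 to 25 falls and 11 to 128 rises in CG. The mean CHH difference stayed between -1.301 and -0.975 points, while CG ran from -0.299 to 0.04625 and CHG from -0.309 to 0.029, with 0.00302 in CG when replicate 1 of 24 h SL was left out. Summing all calls gave 1.299 points in CG and 0.85 in CHG, both reversed. The causes of these moves were not tested, except that fewer or other windows enter where the window or call minimum changes.

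The deviations of same-numbered replicates correlated at 0.00758, 0.0287 and -0.0103, within the range of other-numbered pairs, from -0.0539 to 0.0452. With all of these near 0, the correlations cannot tell whether the numbers pair samples. limma with the replicate block called 1776 CHH falls, 11 falls and 0 rises in CHG, and 0 falls and 1 rise in CG. Not every sample correlated best with its own number. With 3 libraries a group an exact permutation test cannot go below 0.1, and the 2.27 calls per cytosine of 24 h SL replicate 1 limit windows of few calls. Time and tissue cannot be told apart.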
